A study of Mus musculus with 14 samples.

Results

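The 35 genes described here are a hand-chosen set of cell division and DNA replication genes, picked by symbol from the 23039 loci that the 6 RNA-seq tables of a study of the transcription factor subunit TAF9B share. They comprise 8 replication licensing genes, 4 genes of DNA synthesis and nucleotide supply, 5 drivers of G1 and S phase, 15 genes of G2 and mitosis, and 3 inhibitors of cyclin-dependent kinases (CDKs). All 35 were found, and each had a usable value in every table. Levels are read here as a record of how much cell cycle RNA each sample held.

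The study grew mouse embryonic stem (ES) cells of the C57BL/6 strain and turned them into embryoid bodies (EBs), which were driven towards motor neurons with retinoic acid and SAG, an agonist of the hedgehog pathway. The cultures labelled WT came from the clone JM8, and those labelled KO from the clone Taf9b_BG10, in which a LacZ-Neo cassette takes the place of the coding exons of the X-linked gene *Taf9b*, so each label stands for 1 clone. RNA-seq was done on ES cells and on EBs at days 2, 4 and 6 under both labels, on whole lumbar spinal column of newborn WT and *Taf9b* KO littermates, and on newborn WT spinal cord, giving 11 libraries with 1 library per condition. The ES cells had been kept on mitomycin-treated mouse fibroblast feeders, and the spinal column samples hold bone, cartilage, muscle and blood-forming cells beside neural tissue. With 1 library per condition no difference below has a replicate check, so no test was run, and a gene is counted as changed past a 2-fold ratio of FPKM (fragments per kilobase of transcript scaled to the mapped fragments of the library).

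A dividing cell first licenses its replication origins by loading the MCM helicase with the help of CDC6 and CDT1, then copies its DNA, and then passes through mitosis under cyclin A and B bound to CDK1. D-type and E-type cyclins drive the entry into S phase through the E2F factors, and the inhibitors p21 (*Cdkn1a*), p27 (*Cdkn1b*) and p18 (*Cdkn2c*) hold CDKs back. Neurons leave the cell cycle for good when they form, whereas the progenitors before them, ES cells and blood precursors divide fast.

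The targeted gene went against its labels in culture. *Taf9b* was at 0.537, 0.516, 1.96 and 1.37 FPKM in the WT-labelled ES cells and EBs of days 2, 4 and 6, and at 3.06, 4.08, 4.27 and 4.01 FPKM in their KO-labelled partners. In the newborn spinal column it was at 6.65 FPKM under the WT label, 3.31 FPKM under the KO label and 7.44 FPKM in spinal cord. Whether the culture columns of the tables were exchanged was not tested, so every direction between cultures is given as between the library labelled KO and the library labelled WT. The 5 ES cell markers (*Pou5f1*, *Nanog*, *Sox2*, *Zfp42*, *Esrrb*) summed to 1476 FPKM in the WT-labelled ES cells, to 113 FPKM at day 4 and 410 FPKM at day 6 under that label, with 263 and 960 FPKM at days 4 and 6 under the KO label. The 4 measured motor neuron markers summed to 41.3 FPKM at day 6 under the WT label and 2.51 FPKM under the KO label. The 5 measured neuron markers reached 785 FPKM at day 6 under the WT label, 107 FPKM under the KO label and 1559 FPKM in spinal cord.

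In all 8 culture libraries the division genes were abundant. Leaving out the 3 inhibitors, the median of the other 32 genes under the WT label was 102, 86.4, 95.2 and 59.5 FPKM from ES cells to EB day 6, and 103, 77.0, 77.1 and 59.8 FPKM under the KO label. In the newborn spinal column the same median was 6.15 FPKM under the WT label and 8.26 FPKM under the KO label, and in newborn spinal cord 5 of the 32 genes were above 10 FPKM. These levels come from tables that were normalized separately. In the heat map of levels the cultures and tissues stand apart for the division genes other than *Ccnd2*.

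**Figure D1:**
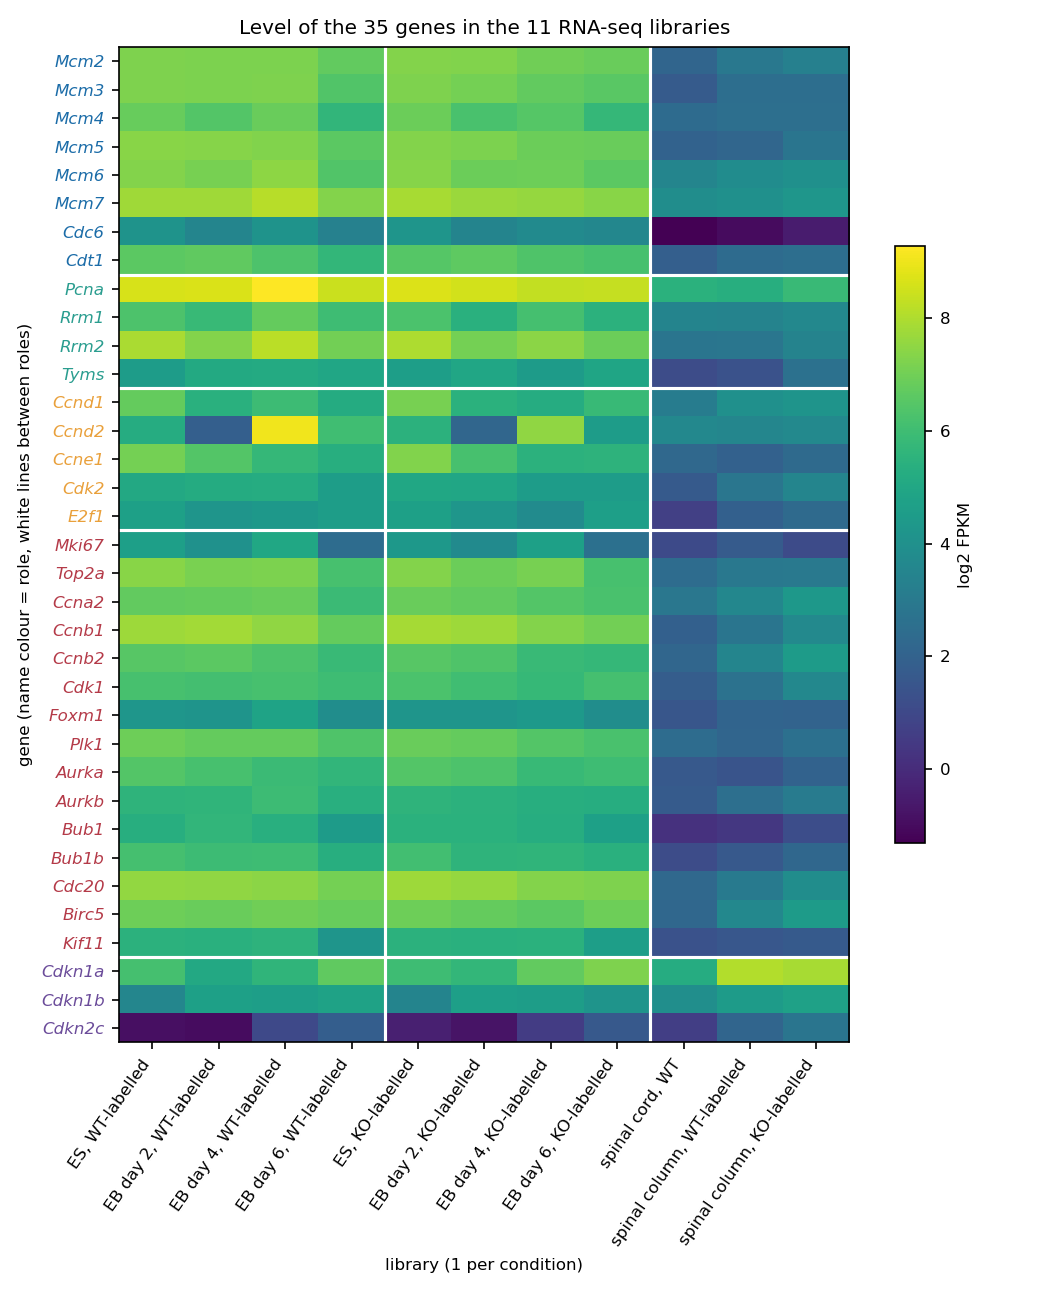
Level of each of the 35 genes (rows, grouped by role) in each of the 11 RNA-seq libraries (columns), as log2 FPKM by colour. The 8 culture columns are bright and the 3 tissue columns dark for the division genes other than *Ccnd2*, which was lower at EB day 2 than in the tissues, with *Pcna* the brightest row at up to 619 FPKM and *Cdc6* the darkest tissue row at 0.403 to 0.702 FPKM.

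For 31 of the 35 genes, the lowest of the 8 culture libraries lay above the highest of the 3 tissue libraries. The same was true of 25.4% of the 15771 loci above 1 FPKM in at least 1 library. The gap between the lowest culture and the highest tissue value ran from 1.61-fold for *Mki67* to 14.6-fold for *Mcm3*. The 4 genes whose culture and tissue values overlapped were *Ccnd2* and the 3 inhibitors. In bulk samples such as these, fewer dividing cells and less of these RNAs in each cell cannot be told apart.

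**Figure D2:**
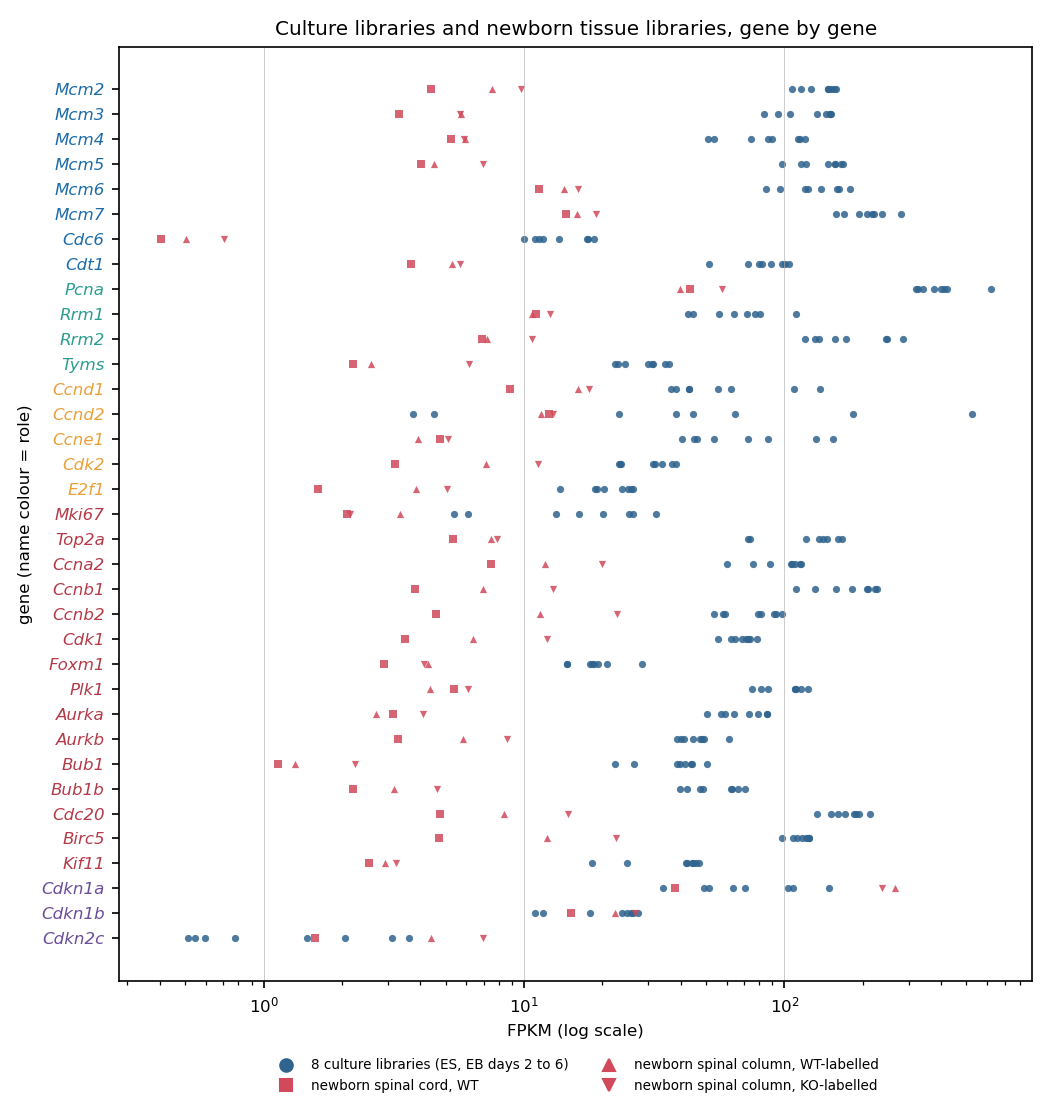
FPKM of each gene on a log axis in the 8 culture libraries (circles), newborn spinal cord (square) and newborn spinal column (triangles, pointing up for the WT label and down for the KO label). Circles lie to the right of all tissue symbols for 31 genes, and overlap with them for *Ccnd2*, *Cdkn1a*, *Cdkn1b* and *Cdkn2c*.

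The time course was followed first under the WT label, to ask when the division genes decline as ES cells become motor neurons. From ES cells to EB day 2 their median log2 ratio was -0.09. At day 2, 3 of the 35 genes were past 2-fold lower (*Ccnd1*, *Ccnd2* and *Cdkn1a*) and 1 past 2-fold higher (*Cdkn1b*), where 7.94% of all 12210 loci tested were lower and 5.26% higher. In this step the 4 feeder or fibroblast markers were all lower, summing to 357 FPKM in ES cells and 54.0 FPKM at day 2, and their part was not tested. From day 2 to day 4 the median was 0.09 and no gene was past 2-fold lower (13.8% of all loci), while *Ccnd2* and *Cdkn2c* were past 2-fold higher (15.6% of all loci). Between days 4 and 6 the median was -0.70, and 31 of the 35 genes were lower, where 45.0% of all loci were lower by any amount.

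The day 6 values stood lowest for most of the set. Under the WT label 28 of the 32 division genes had their lowest value of the 4 stages at day 6 (22.9% of 13320 loci), and under the KO label 21 of the 32 (22.0% of 13281 loci). Under the WT label 17 of the 35 genes peaked at day 4 (25.6% of loci) and 11 in ES cells (20.2%), whereas under the KO label 3 peaked at day 4 (29.3%) and 26 in ES cells (20.8%). The stages lie in separately normalized tables, and the difference between the labels in these counts was not tested.

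**Figure D3:**
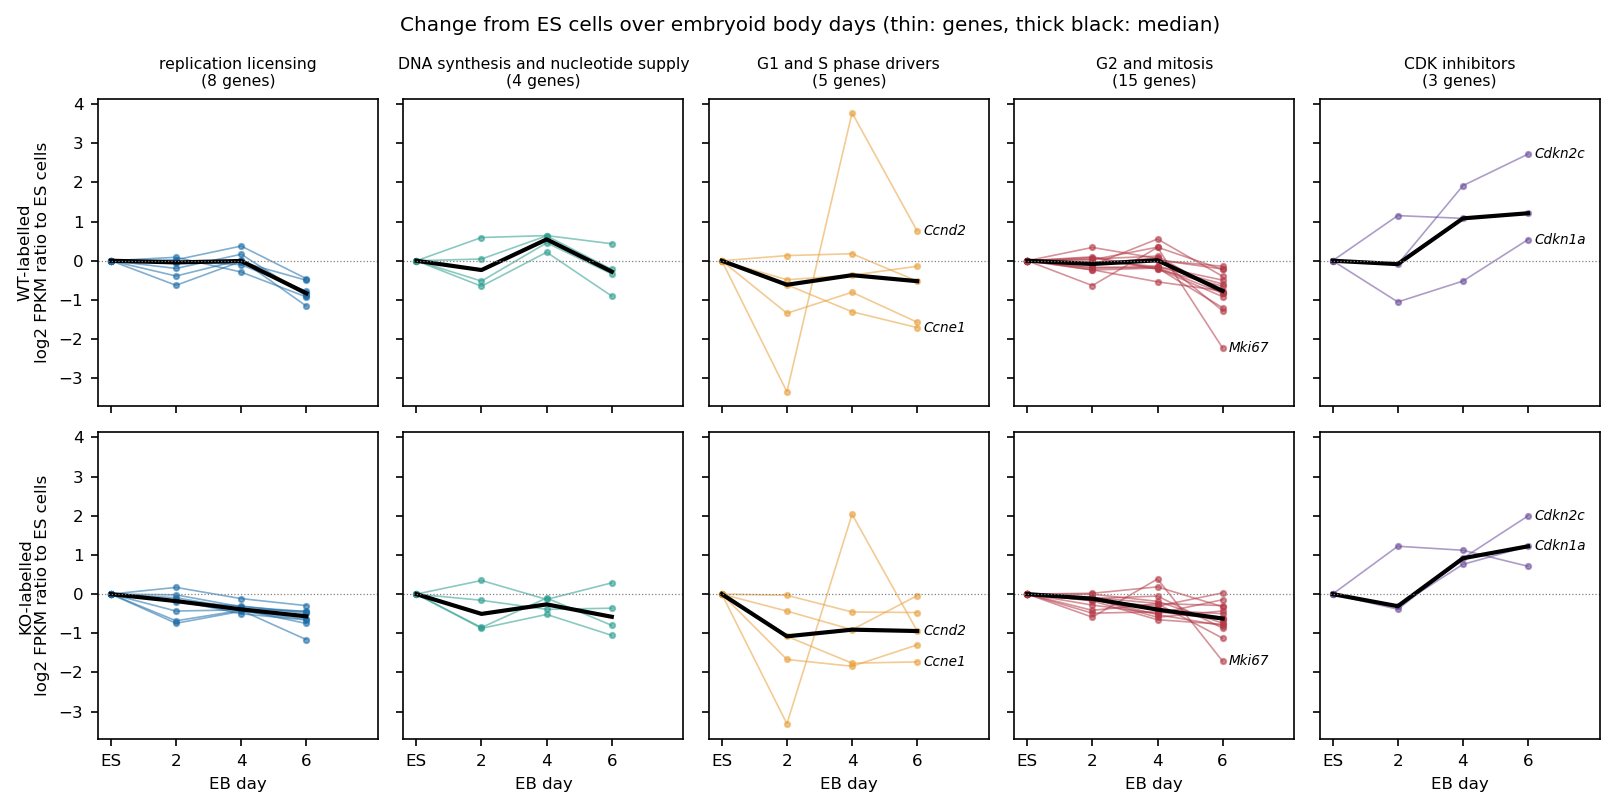
log2 ratio of FPKM to ES cells of the same label (vertical axis) at EB days 2, 4 and 6, by role (columns) and label (rows), with a thin line per gene and the median in black. The median lines of the licensing and mitosis genes stay near 0 to day 4 under the WT label and lie lower at day 6, with single genes spread around them, while *Ccnd2* swings by several log2 units and the inhibitor *Cdkn2c* ends highest.

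The 8 licensing genes, which form or load the replicative helicase, differed among themselves up to day 4 and were all lower at day 6. Their median under the WT label was 150.3, 142, 149 and 84.4 FPKM from ES cells to day 6, and each of the 8 was lower at day 6 than at day 4. *Mcm4*, a helicase subunit, was at 113, 86.4, 115 and 50.7 FPKM over the same stages. Its day 6 value was 2.26-fold below day 4, and *Mcm6* was 2.09-fold below. *Cdc6*, the loader, was the least abundant of them at 17.7, 11.5, 17.5 and 10.02 FPKM. Under the KO label the licensing median went from 153 FPKM in ES cells to 127, 113 and 95.4 FPKM, a more even course than under the WT label.

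Of the synthesis genes, *Pcna*, the sliding clamp of DNA polymerases, had the highest FPKM of the 32 division genes in all 11 libraries. It stood at 398, 411, 619 and 341 FPKM from ES cells to day 6 under the WT label and at 419, 376, 320 and 327 FPKM under the KO label. The WT-labelled day 4 library was thus the high point under its label, and no such high point appeared under the KO label. *Rrm2*, the regulated subunit of ribonucleotide reductase, was at 246, 157, 286 and 131 FPKM under the WT label, 2.17-fold lower at day 6 than at day 4. *Tyms*, which makes thymidylate, differed in having its lowest WT-labelled value in ES cells and 34.8, 36.0 and 31.1 FPKM at days 2, 4 and 6.

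The G1 and S phase drivers diverged from each other. *Ccnd2* (cyclin D2) was at 38.2, 3.76, 523 and 64.6 FPKM over the WT-labelled stages, so that its day 4 value was 139-fold above day 2. The KO-labelled libraries had the same order of stages from day 2 on, with 44.6, 4.50, 183 and 23.2 FPKM. *Ccne1* (cyclin E1) was lower at each later stage under the WT label, at 132, 86.5, 53.6 and 40.5 FPKM. *Ccnd1* (cyclin D1) was highest in ES cells, at 109 FPKM under the WT label and 137 FPKM under the KO label, and at 36.6 and 55.8 FPKM at day 6. *E2f1*, the S phase transcription factor, varied less, between 18.7 and 26.2 FPKM under the WT label. The loci of *Ccnd2*, *Mcm7*, *Ccna2* and *Cdc20* are given to more than 1 gene in the tables, so reads may be split there between overlapping genes.

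All 15 genes of G2 and mitosis were lower at day 6 than at day 4 under the WT label. *Mki67*, which encodes the Ki-67 protein that coats mitotic chromosomes (NM_001081117, mm9 chr7:142881471-142908062), was at 25.3, 16.3, 32.0 and 5.39 FPKM from ES cells to day 6 and had the lowest ratio of the 15, 5.94-fold lower at day 6 than at day 4. *Kif11*, a spindle motor, was 2.56-fold lower and *Top2a*, the topoisomerase of dividing cells, 2.02-fold lower. At the other end *Birc5*, the survivin subunit of the chromosomal passenger complex, was at 125 FPKM at day 4 and 112 FPKM at day 6, a log2 ratio of -0.15. *Ccnb1* (cyclin B1) was at 208, 223, 181 and 110.3 FPKM and *Cdk1*, its kinase, at 72.4, 68.9, 73.5 and 62.5 FPKM. At day 6 14 of the 15 were above 10 FPKM, and the lowest culture value was above the highest tissue value by 1.61-fold for *Mki67*, 2.34-fold for *Ccnb2* and 12.4-fold for *Plk1*, the polo-like kinase.

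The 3 CDK inhibitors had courses of their own. *Cdkn1a* (NM_001111099, chr17:29227931-29237667) was at 70.7, 34.1, 49.3 and 103 FPKM from ES cells to day 6 under the WT label, 2.09-fold higher at day 6 than at day 4. *Cdkn1b* was at 11.8 FPKM at the start and between 25.0 and 27.3 FPKM at days 2 to 6. *Cdkn2c* was under 1 FPKM in ES cells and at day 2 (0.546 and 0.514 FPKM) and at 2.06 and 3.60 FPKM at days 4 and 6. All 3 were higher at day 6 than in ES cells under both labels, where 57.8% of all loci under the WT label and 57.4% under the KO label were higher.

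Counted between days 4 and 6 under the WT label, 7 of the 35 genes were past 2-fold lower (*Mcm4*, *Mcm6*, *Rrm2*, *Ccnd2*, *Mki67*, *Top2a*, *Kif11*) and 1 past 2-fold higher (*Cdkn1a*), where 9.92% of 12712 loci were lower and 17.0% higher. The *Cdkn1a* call was lost with centring (0 higher and 9 lower, where 15.2% and 11.7% of all loci were) and with the trend with transcript length removed (0 higher, where 14.7% were). Under the KO label the median was -0.18, with *Ccnd2* and *Mki67* past 2-fold lower (11.0% of all loci) and *Cdkn2c* past 2-fold higher (12.5% of all loci), a call lost with 1 FPKM added or the length trend removed. In this interval the ES cell markers went from 113 to 410 FPKM under the WT label (4 of 5 higher) and from 263 to 960 FPKM under the KO label (5 of 5 higher), the neural progenitor markers from 303 to 90.8 and from 68.4 to 18.1 FPKM, and the neuron markers from 28.4 to 785 and from 34.99 to 107 FPKM. The 4 feeder or fibroblast markers went from 4.52 to 39.5 and from 25.6 to 101.5 FPKM, against 357 and 388 FPKM in the ES cells of the WT and KO label, and the part of any of these cells in the division genes' ratios was not tested. From ES cells to day 6, 6 genes were past 2-fold lower under the WT label (15.0% of all loci) and 2 higher (23.2%), with a median of -0.65. Under the KO label 6 were lower (9.56%) and 2 higher (16.9%), with a median of -0.61. *Mcm4*, *Ccnd1*, *Ccne1*, *Mki67* and *Top2a* were past 2-fold lower under both labels, with *Kif11* added under the WT label and *Rrm2* under the KO label. Scaling moved this count: after subtraction of the all-loci median, 15 genes were past 2-fold lower and 2 higher from ES cells to day 6 under the WT label (18.6% of loci in each direction), and 8 lower and 2 higher under the KO label (12.3% and 14.0%). With the length trend removed 12 were lower and 2 higher under the WT label (15.4% and 17.6%), and 6 lower and 1 higher under the KO label (9.24% and 13.0%). With the WT-labelled ES values of the spinal cord table, 10 were lower and 2 higher (17.2% and 20.1% of all loci).

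Transcript length moved with these ratios. Between days 4 and 6 the Spearman correlation of the log2 ratio with the length of the longest GENCODE transcript was -0.42 over 10752 loci under the WT label and -0.45 over 10972 loci under the KO label, a description over loci of the same 2 libraries. Among the 35 genes, the 8 with transcripts over 4000 bases had a median day 6 over day 4 log2 ratio of -1.04 under the WT label and the 6 with transcripts under 2000 bases a median of -0.39. All loci of those length classes had medians of -0.37 and 0.50. With the length trend removed, the median of the 35 genes was -0.73. *Mki67*, at 10075 bases, has the longest transcript of the set.

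Newborn spinal cord was compared with the WT-labelled ES cells of the same table, to ask how far the division genes lie below ES cells in a newborn nervous tissue. The median log2 ratio of the 35 genes was -4.46, or 21.9-fold lower. Neuron markers summed to 186 FPKM in ES cells and 1559 FPKM in cord, glia markers to 38.3 and 999.8 FPKM, neutrophil markers to 0.246 and 48.6 FPKM and erythroid markers to 0.195 and 10.2 FPKM, and the part of cell makeup in the difference was not tested. Past 2-fold, 33 of the 35 genes were lower and 1 higher, where 35.7% of 14288 loci were lower and 30.4% higher. Each of the 32 division genes was among the 33. The inhibitors stood apart, with *Cdkn1a* at 77.0 and 38.2 FPKM in ES cells and cord, a 2.02-fold ratio, *Cdkn1b* at 12.9 and 15.2 FPKM, and *Cdkn2c* 2.65-fold higher in cord. The *Cdkn1a* call was lost with 1 FPKM added, centring, the other ES table or the length trend removed, and the *Cdkn2c* call with 1 FPKM added or with 1 FPKM required in both libraries.

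*Ccnb1* (NM_172301, chr13:101548694-101556441) had the lowest ratio, at 227 and 3.83 FPKM in ES cells and cord, 59.3-fold lower. *Mcm3*, a helicase subunit, was 49.4-fold lower and *Cdc6* 47.8-fold, the latter ending at 0.403 FPKM. *Cdc20*, which activates the anaphase-promoting complex, was at 205 and 4.74 FPKM, 43.3-fold lower. The smallest differences among the division genes were those of *Ccnd2* (3.34-fold), *Foxm1*, the G2 transcription factor (7.28-fold), and *Rrm1*, the other ribonucleotide reductase subunit (7.85-fold). By role, the medians were -5.04 for licensing, -3.41 for synthesis, -3.74 for G1 and S phase and -4.64 for G2 and mitosis. *Pcna* kept the highest level of the division genes in cord, at 43.3 FPKM.

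Against WT-labelled EBs of day 6, set beside the cord from a separately normalized table, all 35 genes were lower in spinal cord (58.3% of loci), 34 of them past 2-fold (34.3% of 14165 loci), with none past 2-fold higher (26.1%). The median log2 ratio was -3.68, or 12.8-fold lower. *Mki67* differed least of the mitotic genes, at 5.39 and 2.09 FPKM, while *Ccnb1* was 28.8-fold lower. From day 6 EBs to cord the glia markers summed to 41.1 and 999.8 FPKM, the neuron markers to 785 and 1559 FPKM, the fibroblast markers to 39.5 and 345 FPKM, the neutrophil markers to 1.41 and 48.6 FPKM, the erythroid markers to 0.201 and 10.2 FPKM and the ES cell markers to 410 and 38.0 FPKM, and the part of cell makeup in this difference was not tested.

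The WT-labelled spinal column, also from a separate table, had higher FPKM of most division genes than the cord. The cord library summed to 410430 FPKM and the column library to 518851 FPKM, and the part of this difference in scale was not tested. The median ratio of column to cord was 0.53 on the log2 scale, and 29 of the 35 genes were higher (46.6% of loci). The 4 synthesis genes were split, with 2 higher, 2 lower and a median of -0.001. Past 2-fold, 6 of the 35 were higher, a share near that of all loci (17.3% of 14059 loci), and none lower (16.0%). The 6 were *Cdk2*, *E2f1*, *Ccnb2*, *Birc5*, *Cdkn1a* and *Cdkn2c*, of which *Cdk2* and *E2f1* were no longer past 2-fold with 1 FPKM added. *Cdkn1a* stood out, at 267 FPKM in the WT-labelled column, 236 FPKM in the KO-labelled column and 38.2 FPKM in cord, 6.99-fold above cord. *Birc5* was at 12.2 FPKM in column and 4.72 FPKM in cord, and *Ccnb2*, the other B cyclin, at 11.5 and 4.59 FPKM. Neutrophil markers (5 genes) summed to 569.5 FPKM in the WT-labelled column and 48.6 FPKM in cord, the 3 measured of 5 erythroid markers to 18.0 and 10.2 FPKM, the muscle marker *Myh3* was at 420.5 and 0.612 FPKM, and the fibroblast markers summed to 2996 and 345 FPKM. Neuron markers summed to 704 FPKM in column and 1559 FPKM in cord and glia markers to 254 and 999.8 FPKM, and the part of such cells in the division genes' values was not tested.

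The library pairs that share a day or tissue ask whether the label goes with a difference in the division genes. In ES cells the 35 genes were level between the labels, with a median log2 ratio (KO over WT) of 0.01 and a range from -0.34 for *Mki67* to 0.51 for *Cdkn2c*. None was past 2-fold higher (0.543% of 11968 loci) or lower (0.593%), and 19 were higher by any amount (56.0% of loci). *Cdkn2c* was under 1 FPKM in both ES libraries and is counted here although it was not among the loci tested. At EB day 2 the median was -0.09, again with none past 2-fold higher (1.19% of 11900 loci) or lower (1.36%), and 24 were lower by any amount (49.6% of loci).

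At EB day 4, 33 of the 35 genes had lower FPKM under the KO label, where 52.2% of 12483 loci and 59.7% of the 6017 loci above 10 FPKM in both libraries were lower. The differences were small, with a median log2 ratio of -0.37, and past 2-fold stood only *Ccnd2*, lower (4.40% of loci), and *Cdkn1a*, higher (12.1% of loci). *Cdkn1a* was at 49.3 FPKM under the WT label and 108 FPKM under the KO label, a 2.18-fold ratio, and *Ccnd2* at 523 and 183 FPKM, 2.86-fold lower under the KO label. All 15 G2 and mitosis genes, all 5 G1 and S phase drivers and all 4 synthesis genes were lower, with medians of -0.35, -0.70 and -0.71. *Pcna* had the next lowest ratio after *Ccnd2*, -0.95, and *Cdt1* was the only division gene not lower, at 80.0 and 82.1 FPKM. The 5 neural progenitor markers were all lower under the KO label at this day, with sums of 303 and 68.4 FPKM under the WT and KO labels, the 5 ES cell markers all higher (113 and 263 FPKM), the feeder or fibroblast markers summed to 4.52 and 25.6 FPKM, and their part in the difference was not tested.

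**Figure D4:**
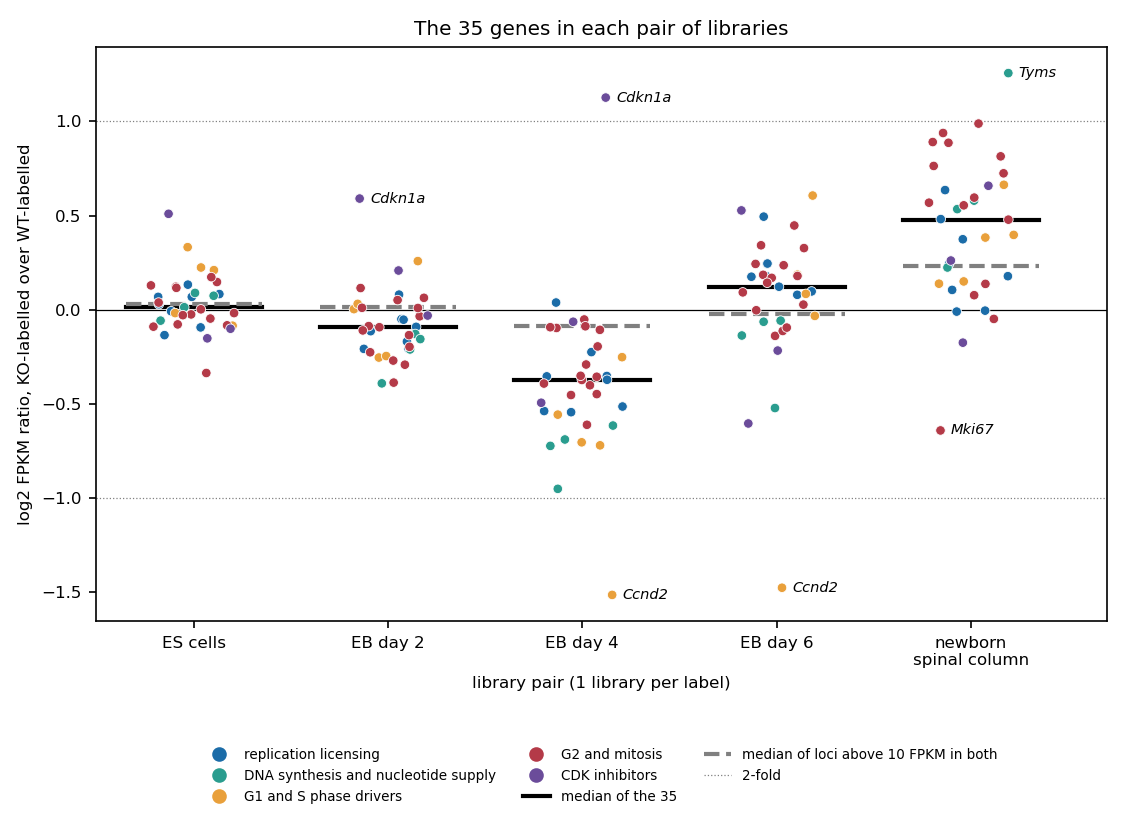
log2 FPKM ratio, KO-labelled over WT-labelled library, of each of the 35 genes (points coloured by role) in the 5 library pairs, with the median of the 35 (black) and of all loci above 10 FPKM in both libraries (grey dashes). The black line lies at -0.37 at EB day 4 and at 0.48 in the newborn spinal column, while *Ccnd2* lies near -1.5 at days 4 and 6.

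At EB day 6 the direction was mixed. The median was 0.12, and 23 of the 35 genes were higher under the KO label (49.8% of 12929 loci). Each of the 8 licensing genes and 11 of the 15 mitotic genes was higher, and each of the 4 synthesis genes lower. *Ccnd2* alone was past 2-fold, at 64.6 and 23.2 FPKM and 2.78-fold lower (9.93% of loci), and none was past 2-fold higher (10.6% of loci). *Cdkn1a* was again higher under the KO label, at 103 and 148 FPKM, and *Cdkn1b* lower, at 27.3 and 18.0 FPKM. At this day the neuron markers were 5 of 5 lower under the KO label and the ES cell markers 5 of 5 higher, while the median division gene was 1.09-fold higher, and the part of these cell types was not tested.

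In the newborn spinal column 30 of the 35 genes had higher FPKM under the KO label, where 53.5% of 14138 loci and 66.9% of the 5364 loci above 10 FPKM in both libraries were higher. The median log2 ratio was 0.48, against 0.23 for the loci above 10 FPKM, and 0.42 after centring on the median of all loci. The libraries summed to 518851 FPKM under the WT label and 760335 FPKM under the KO label. The part of this difference in scale in the ratios was not tested. *Tyms* was past 2-fold higher, at 2.58 and 6.16 FPKM (9.10% of loci past 2-fold higher), and none was past 2-fold lower (8.52%). The mitotic genes had the highest median of the 5 roles, 0.60, led by *Ccnb2* at 11.5 and 22.8 FPKM, *Cdk1* at 6.37 and 12.2 FPKM, and *Ccnb1* at 6.96 and 12.9 FPKM. With the length trend removed the mitotic median was 0.46, below the 0.50 of the 3 inhibitors, and *Ccnb2* was at 0.54 on the log2 scale, below *Birc5* at 0.93, *Cdk1* at 0.88 and *Bub1* at 0.83. *Mki67* went the other way, at 3.35 and 2.15 FPKM.

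Length and cell makeup also moved in this pair. The Spearman correlation of the ratio with transcript length was -0.60 over 12028 loci and -0.42 over the 35 genes. With the length trend removed, the 34 genes above 1 FPKM had a median of 0.41, and *Mki67* was at 0.34. All 5 neutrophil markers were higher under the KO label, summing to 569.5 FPKM under the WT label and 1218 FPKM under the KO label, led by *S100a8* at 406 and 855 FPKM with 1 of the 5 at 0 under the WT label, and all 3 erythroid markers, summing to 18.0 and 32.5 FPKM. The 5 neuron markers were all lower, with 704 and 449 FPKM, as were the 5 neural progenitor markers (39.5 and 25.4 FPKM), the 3 measured cartilage markers (23.9 and 17.4 FPKM) and *Myh3* (420.5 and 218 FPKM), and the fibroblast markers summed to 2996 and 2171 FPKM (3 of 4 lower). The part of these cell types in the division genes' ratios was not tested.

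The wider machinery, taken from 5 lists of genes outside the set, was read beside the 35. Of 36 genes of origins, the helicase and the fork, all 36 were past 2-fold lower in cord against ES cells, where 35.7% of all loci were lower and 30.4% higher, from *Orc1*, the largest origin recognition subunit, at 26.5 and 0.167 FPKM in ES cells and cord, to *Orc3* at 16.2 and 7.97 FPKM. Of 46 tested genes of the kinetochore, spindle and cytokinesis, 45 were past 2-fold lower. The exception was *Fzr1*, the CDH1 activator of the anaphase-promoting complex in G1 and in non-dividing cells, at 45.9 and 42.7 FPKM. Of 17 genes of the E2F, RB and DREAM group, 12 were past 2-fold lower and 1 higher. *Mybl2* (B-MYB), which activates mitotic genes, was at 259 and 0.758 FPKM, while *Rbl2*, the p130 pocket protein of quiescent cells, was at 1.82 and 9.43 FPKM.

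All 11 tested genes of the other cyclins, CDKs and their regulators were past 2-fold lower in cord, from *Ccnf* at -5.32 to *Cdc25b* at -1.04 on the log2 scale. Of the 10 other CDK inhibitors and exit genes, 6 were past 2-fold lower in cord (35.7% of all loci) and 1 higher (30.4%). The higher one was *Cdkn1c* (p57), at 9.65 and 59.2 FPKM in ES cells and cord. Between days 4 and 6 under the WT label 5 of the 10 were past 2-fold higher (17.0% of all loci) and none lower (9.92%), with *Cdkn2b* (p15) at 0.737 and 10.6 FPKM and *Cdkn1c* at 27.7 and 228 FPKM. Of the 47 kinetochore, spindle and cytokinesis genes, 14 were past 2-fold lower in that interval and none higher. At day 4, 41 of those 47 genes and 32 of the 36 replication genes were lower under the KO label, where 52.2% of all loci were, while *Mybl2* was higher, at 30.2 and 62.4 FPKM. The other CDK inhibitors and exit genes went the other way at day 4, with 7 of 10 higher under the KO label, 5 of them past 2-fold (12.1% of all loci), none past 2-fold lower (4.40%) and a median of 0.99 on the log2 scale. *Cdkn2b* was at 0.737 and 4.40 FPKM under the WT and KO labels and *Gadd45b*, a growth arrest and stress gene, at 2.19 and 7.47 FPKM. In the newborn spinal column 36 of 43 tested kinetochore and spindle genes and 27 of 33 replication genes were higher under the KO label, where 53.5% of all loci were, led by *Rpa3*, the smallest subunit of replication protein A, at 11.7 and 40.01 FPKM. In the WT-labelled column against cord, 15 of 33 tested replication genes were higher and 18 lower, and 32 of 41 kinetochore and spindle genes were higher (46.6% of all loci).

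The binding of TAF9B and RNA polymerase II (POL2) at the 35 start sites was read from 1 peak list each, called with MACS from motor neuron EB cultures of the HBG3 clone. The paper differentiated these cultures for longer than the day 6 EBs. Expressed genes and levels set beside the peaks come from day 6 EBs of the JM8 and Taf9b_BG10 clones, so stage and clone differ. TAF9B peaks lay within 500 bp of the start site at 15 of the 35 genes, against 27.6% of the 11261 genes that day 6 EBs expressed and 32.7% of the 5236 genes above 10 FPKM in both day 6 libraries. POL2 peaks lay there at 18 of the 35 genes, where 50.5% of the expressed genes and 67.0% of the more abundant ones had a peak. Both peaks were present at 12 genes, TAF9B alone at 3, POL2 alone at 6 and neither at 14. The control library was not used here, and the lists hold no read counts, so the depth behind a missing peak is unknown.

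TAF9B peaks were unevenly spread over the roles. They lay within 500 bp of the start at 10 of the 15 mitotic genes and 3 of the 4 synthesis genes, but at 1 of the 8 licensing genes (*Mcm4*), 1 of the 3 inhibitors (*Cdkn1b*) and 0 of the 5 G1 and S phase drivers. Farther out, the nearest TAF9B peaks of the drivers lay at -1631 bp for *Ccnd1* (score 271) and -4731 bp for *Ccne1*. Those of *E2f1*, *Cdk2* and *Ccnd2* lay at 29917, 31126 and 41394 bp. The difference between the roles was not tested. Among peaks within 500 bp of a start site, the highest TAF9B scores, on the scale of the caller, were 328 at *Aurkb*, the Aurora kinase of the chromosomal passenger complex, 217 at *Rrm1* and 192 at *Cdk1*, against a median of 83.3 over the 10415 peaks of the list. Their midpoints lay at 24, 40 and -54 bp from the start, where negative is upstream. *Birc5* had the highest POL2 score of the set at a start site, 605, with the midpoint at -378 bp. *Mki67*, *Mcm3*, *Mcm6*, *Cdt1* and *Cdkn2c* had no TAF9B peak within 50 kb. *Cdkn1a* counts as without a peak by its RefSeq start, but peaks of both lists lay by a downstream GENCODE start, at -91 bp for TAF9B and 87 bp for POL2, and for *Mcm7* a TAF9B peak lay at -46 bp of such a start.

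**Figure D5:**
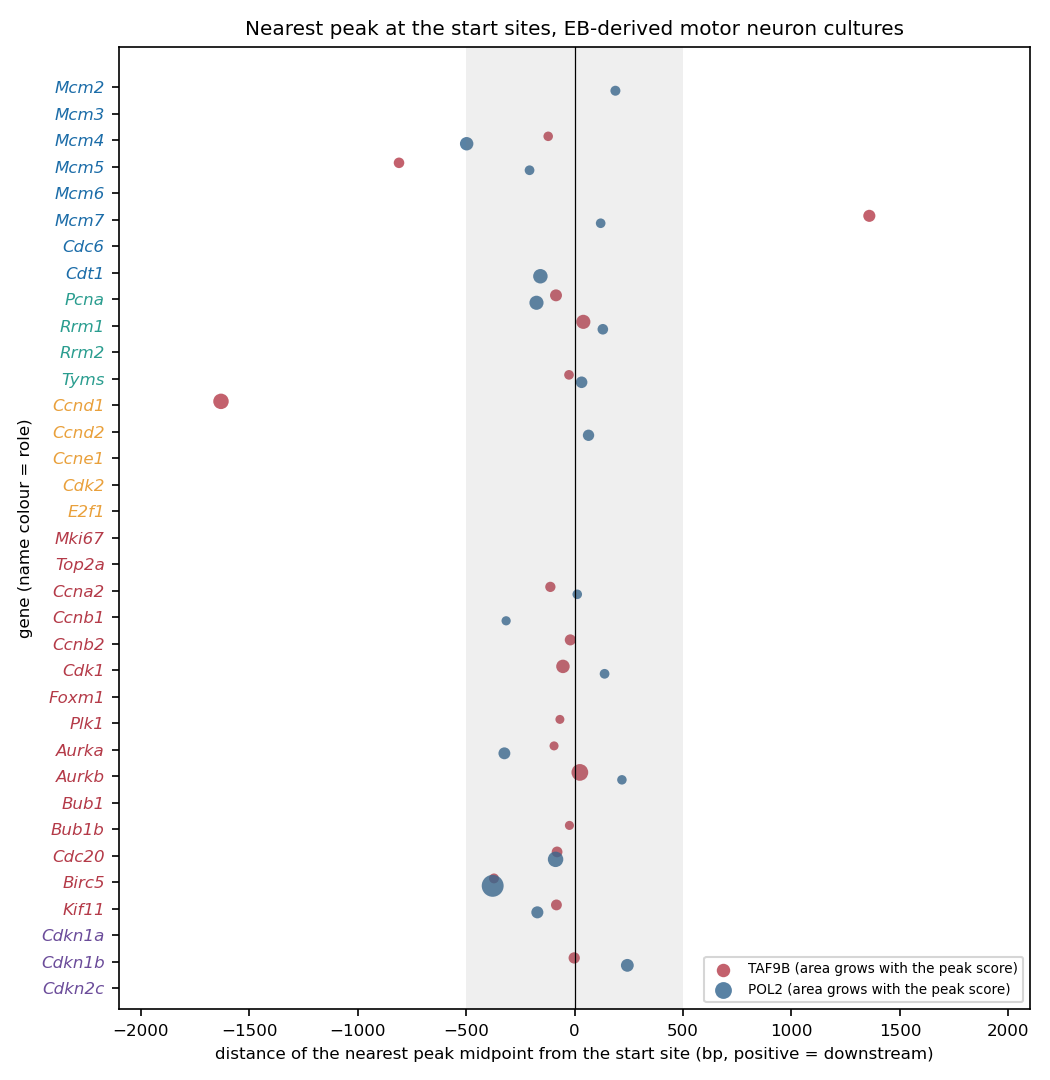
Distance in bp of the nearest TAF9B (red) and POL2 (blue) peak midpoint from the start site of each of the 35 genes, drawn where it lies within the plotted range, with the 500 bp zone in grey and point area growing with the peak score. TAF9B points crowd at the start of the mitotic genes and none lies in the grey zone at the 5 G1 and S phase drivers.

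The promoter windows differed between roles in the motifs they hold. Windows of 300 bases (250 before the start site and 50 from it on) were read from mm9 for all 35 genes, and both strands were searched for the cell cycle homology region or CHR (TTTGAA or TTCGAA), which the DREAM and B-MYB complexes use, for the CCAAT box (CCAAT), the site of NF-Y, and for an E2F site (TTTCGCGC, TTTGGCGC or TTTCCCGC). A CHR word was found in 12 of the 15 mitotic windows and in 2 of the other 20, those of *Mcm2* and *Ccnd2*, where 12.4% of windows of 11259 expressed genes held it. CCAAT was found in 26 of the 35 windows (38.6% of expressed genes), among them 13 of the 15 mitotic ones. An E2F word was found in 9 windows (3.54% of expressed genes), of which 6 belong to the 8 licensing genes, 2 to *Cdk2* and *E2f1*, and 1 to *Cdk1*. In these 35 windows 0 matches of different motifs overlapped, and a match is a description of the sequence, not a bound site.

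Of the 12 mitotic genes with a CHR word, 8 had a TAF9B peak at the start (*Ccnb2*, *Cdk1*, *Plk1*, *Aurka*, *Aurkb*, *Bub1b*, *Cdc20*, *Kif11*) and 4 had none (*Mki67*, *Top2a*, *Foxm1*, *Bub1*). Over all 15 mitotic genes, 10 had such a peak. Among those without a CHR word, *Ccna2* and *Birc5* had a peak and *Ccnb1* had none. A link between the CHR word and the peak was not tested. The windows below show the layouts: *Mcm4* for the licensing genes with an E2F word and a TAF9B peak, *Cdk1*, *Cdc20* and *Ccnb2* for mitotic genes with a CHR word and a TAF9B peak, and *Mki67* for a mitotic gene with a CHR word and no peak. They are given in the direction of the gene on build mm9, with CHR, CCAAT and E2F matches of either strand in capitals. All 5 genes lie on the minus strand, and the windows are chr16:15637444-15637743 for *Mcm4*, chr10:68815611-68815910 for *Cdk1*, chr4:118109908-118110207 for *Cdc20*, chr9:70269312-70269611 for *Ccnb2* and chr7:142908013-142908312 for *Mki67*.
Mcm4: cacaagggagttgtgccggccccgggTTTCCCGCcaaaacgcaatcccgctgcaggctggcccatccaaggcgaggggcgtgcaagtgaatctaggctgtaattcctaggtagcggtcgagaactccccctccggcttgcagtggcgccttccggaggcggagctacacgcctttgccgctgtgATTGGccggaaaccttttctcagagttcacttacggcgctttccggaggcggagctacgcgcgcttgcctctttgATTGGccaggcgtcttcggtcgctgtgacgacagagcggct
Cdk1: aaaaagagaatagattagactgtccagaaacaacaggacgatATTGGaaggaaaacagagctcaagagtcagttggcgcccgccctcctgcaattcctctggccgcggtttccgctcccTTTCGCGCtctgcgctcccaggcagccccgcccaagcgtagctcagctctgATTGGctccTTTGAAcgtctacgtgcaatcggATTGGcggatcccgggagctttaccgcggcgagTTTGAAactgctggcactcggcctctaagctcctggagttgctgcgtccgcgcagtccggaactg
Cdc20: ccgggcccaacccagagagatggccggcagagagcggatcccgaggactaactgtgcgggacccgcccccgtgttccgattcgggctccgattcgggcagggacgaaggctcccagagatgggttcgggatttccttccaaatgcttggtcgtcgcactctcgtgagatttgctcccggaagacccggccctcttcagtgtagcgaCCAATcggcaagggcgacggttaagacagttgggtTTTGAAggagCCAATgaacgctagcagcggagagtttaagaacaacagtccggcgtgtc
Ccnb2: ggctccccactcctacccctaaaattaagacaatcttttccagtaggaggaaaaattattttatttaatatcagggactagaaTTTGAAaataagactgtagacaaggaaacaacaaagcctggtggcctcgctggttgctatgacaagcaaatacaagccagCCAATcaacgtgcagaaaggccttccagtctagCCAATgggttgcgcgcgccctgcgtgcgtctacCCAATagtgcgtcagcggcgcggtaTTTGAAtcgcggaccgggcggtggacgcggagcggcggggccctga
Mki67: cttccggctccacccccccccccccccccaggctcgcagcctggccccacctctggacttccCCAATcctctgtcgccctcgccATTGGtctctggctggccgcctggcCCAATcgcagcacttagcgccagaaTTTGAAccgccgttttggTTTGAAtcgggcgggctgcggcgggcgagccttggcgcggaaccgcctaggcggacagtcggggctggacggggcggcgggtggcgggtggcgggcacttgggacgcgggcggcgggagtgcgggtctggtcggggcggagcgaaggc

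Counted from the start base as 0, the CHR words of *Cdk1* begin at -71 and -15 and its E2F word at -131, and the TAF9B midpoint lies at -54, between the CHR words. In *Cdc20* the CHR word begins at -9 and a CCAAT at -44, with the TAF9B midpoint at -81. *Ccnb2* has 3 CCAAT words, at -87, -54 and -21, and a TAF9B midpoint at -20, but no POL2 peak within 50 kb. *Mki67* has CHR words at -116 and -98 and 3 CCAAT words, and neither peak. *Mki67* and *Ccnb2* thus share these words and differ in the peak list, at day 6 levels of 5.39 and 59.0 FPKM under the WT label. Other genes with both words had the opposite order. *Top2a*, without a TAF9B peak at the start, was at 72.3 FPKM, and *Bub1b*, with one, at 39.8 FPKM. A link between peak and level was not tested.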

How the data were processed

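The authors sequenced poly-A RNA, aligned reads with TopHat to mm9 and used Cuffdiff; the deposited tables hold FPKM values per RefSeq locus, 2 libraries per table, and the authors' own fold changes and p-values, which were not used. The deposited peak lists give a MACS score per peak on mm9. The 35 members and the gene lists were chosen with earlier results of these data known. RefSeq accessions were matched to symbols, and 23039 loci were common to the 6 tables. Values in different tables were normalized separately. log2 ratios of FPKM were taken without a pseudocount, loci above 1 FPKM in at least 1 library formed the background, and loci marked HIDATA or FAIL were left out. All 35 members were counted in each comparison, also where under 1 FPKM. With 1 library per condition no test was run. Depth is unknown: low FPKM values times transcript length did not fall on whole multiples. Start sites are the 5′ ends of RefSeq loci, or of the GENCODE vM1 gene where loci are merged. The genes named are all members, *Taf9b*, the markers, and the 2 highest and 2 lowest ratios of each wider list. Alternatives planned were 1 FPKM added to both values, loci above 1 FPKM in both libraries, centring, 1.5-fold, the other table holding the WT-labelled ES library, 1000 bp and higher-scoring peaks; the removal of the length trend (lowess, fraction 0.3) and GENCODE starts were chosen after seeing the data. Counting and trend removal were run on simulated data, where all 200 genes planted well past the 2-fold limit were recovered in each of the 14 comparisons. This checks the code only, since no genes were planted near 2-fold and the noise was set low. Python 3.11.15, pandas 2.3.3 and statsmodels 0.14.6 were used.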

Additional observations from a re-analysis of the deposited data

Results flagged for a closer look

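Some genes had log2 ratios (KO-labelled over WT-labelled) of opposite sign and at least 0.5 in size in both of 2 library pairs, with the labels taken as given. With 1 library per label these differences were not tested. *Ccnd1* was at -0.70 at EB day 4 and 0.61 at EB day 6, a difference of 1.31. Between EB day 4 and the newborn spinal column, *Tyms* went from -0.69 to 1.26, a difference of 1.94, and *Pcna* from -0.95 to 0.53, a difference of 1.48. *Cdk2* differed by 1.38 between these pairs, *Rrm2* by 1.30 and *Aurkb* by 1.18, each negative at day 4 and positive in the column. *Taf9b* was higher under the KO label in culture. In the column it was lower under that label but not absent, at 6.65 and 3.31 FPKM under the WT and KO labels. These 5 oppositions therefore rest on the direction of the culture ratio. With the culture columns exchanged, the day 4 ratios would be 0.69 for *Tyms*, 0.95 for *Pcna*, 0.72 for *Cdk2*, 0.72 for *Rrm2* and 0.61 for *Aurkb*, of the same sign as in the column, while *Ccnd1* would keep opposite signs at 0.70 and -0.61. With the trend with transcript length removed from the column pair, *Pcna* was at 0.08, *Rrm2* at 0.35 and *Aurkb* at 0.27 there, under the limit of 0.5, and *Tyms* was at 1.40 and *Cdk2* at 0.50. The *Ccnd1* ratios were then -0.70 and 0.53.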

How the results depend on the processing

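Under the alternatives, 64 counts of members stayed within 1.5 times the reported count and 16 did not. With 1.5-fold in place of 2-fold, members past the limit for the KO-labelled over the WT-labelled library were 1 at EB day 2 (1 higher, where 3.77% of all loci were higher), 9 at day 4 (1 higher and 8 lower, 19.7% and 12.5% of loci), 3 at day 6 (1 higher and 2 lower, 18.8% and 18.0%) and 13 in the spinal column (12 higher and 1 lower, 22.1% and 19.1%). Under the WT label they were 9 for day 2 over ES cells (2 higher and 7 lower, 14.2% and 14.6%), 9 for day 4 over day 2 (8 higher and 1 lower, 26.5% and 21.3%), 23 for day 6 over day 4 (2 higher and 21 lower, 28.3% and 20.3%), 22 for day 6 over ES cells (3 higher and 19 lower, 35.7% and 23.7%) and 15 for column over cord (15 higher, 25.9%). Under the KO label they were 8 for day 6 over day 4 (2 higher and 6 lower, 22.5% and 20.9%) and 21 for day 6 over ES cells (3 higher and 18 lower, 29.9% and 18.6%). For day 6 over ES cells under the WT label centring gave 17 (37.2% of all loci) and removal of the length trend 14 (33.0%) in place of 8. Requiring 1 FPKM in both libraries left 1 gene for day 4 over day 2, as *Cdkn2c* then drops out. Peaks with a score above the median of their list left 9 members with a TAF9B peak (18.0% of the expressed genes) and 8 with a POL2 peak (28.9%). The median log2 ratio in ES cells, 0.01, turned to -0.007 with centring, -0.110 with the other table and -0.026 with the length trend removed. For cord over ES cells the median lay between -4.46 and -3.94, and for cord over EB day 6 between -3.68 and -3.00. Depth and replicate spread are unknown, so ratios near 2-fold and levels under 1 FPKM are uncertain. No analysis paired by replicate number was made, since each condition has 1 library, and a fit over the 4 culture pairs with the stage as a block was not run.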
